A study of Mus musculus with 6 samples.

Results

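The 9 genes described here encode the thioredoxin-interacting protein TXNIP (Txnip), 4 of its alpha-arrestin relatives (Arrdc1, Arrdc2, Arrdc3 and Arrdc4), the 2 thioredoxins (Txn1 and Txn2) and 2 thioredoxin reductases (Txnrd1 and Txnrd2). They were taken by gene symbol from a table of 52550 gene rows, in which each symbol matched 1 row, and all 9 passed the filter on low values that 14656 rows passed. They were measured by RNA sequencing of infarcted hearts from KO mice, which carry the lncRNA-DRR-/- genotype (loss of a long noncoding RNA), and from wild-type (WT) mice. All mice were C57BL/6. Their left anterior descending coronary artery was tied off permanently at 8 weeks of age, and hearts were taken at 10 weeks, 2 weeks after infarction. There were 3 KO and 3 WT heart libraries, all from infarcted hearts, so the only comparison is KO against WT within infarcted hearts.

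Thioredoxins are small proteins that reduce disulphide bonds in other proteins and are themselves returned to the reduced state by thioredoxin reductases, selenium-containing enzymes that draw on NADPH. TXNIP binds reduced thioredoxin and blocks it, and it also takes glucose transporters off the cell surface, so that it links redox state to glucose uptake. Alpha-arrestins are adaptors that bring ubiquitin ligases of the NEDD4 family to membrane proteins. In heart muscle TXNIP is known as a glucose-responsive gene and a brake on glucose uptake.

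The promoters of the 4 members to which the results return are shown in part, upstream of the gene start and on the gene's own strand (RefSeq, GRCm38.p6). Txnip is shown as the most abundant member and the only one of the 9 in which the paired carbohydrate response element, through which glucose is known to act on it, was found in the window searched. Arrdc4 is shown as its relative with an E-box, Txnrd1 for its antioxidant response element, and Arrdc2 as the member with the largest difference between genotypes. In Txnip, capitals mark the forkhead site GTAAACA, the CCAAT box on either strand and the paired carbohydrate response element. In Arrdc4 they mark the E-box CACGTG and the CCAAT box on either strand. In Txnrd1 they mark the antioxidant response element TGACNNNGC, and in Arrdc2 the CCAAT box, both read on the other strand.
Txnip: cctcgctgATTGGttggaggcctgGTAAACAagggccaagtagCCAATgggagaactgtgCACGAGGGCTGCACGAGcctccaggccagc
Arrdc4: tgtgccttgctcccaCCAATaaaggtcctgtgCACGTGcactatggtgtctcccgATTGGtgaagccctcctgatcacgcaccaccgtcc
Txnrd1: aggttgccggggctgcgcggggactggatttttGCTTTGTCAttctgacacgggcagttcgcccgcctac
Arrdc2: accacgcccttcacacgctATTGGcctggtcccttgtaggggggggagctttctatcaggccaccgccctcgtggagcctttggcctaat
The Txnip stretch lies at chr3:96557812-96557901 (plus strand), from 145 to 56 bases before the gene start, and its paired element occupies chr3:96557872-96557888. The Arrdc4 stretch lies at chr7:68749374-68749463 (minus strand), the Txnrd1 stretch, upstream of one of that gene's alternative starts, at chr10:82859081-82859150 (plus strand) and the Arrdc2 stretch at chr8:70839776-70839865 (minus strand).

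All 9 members had at least 1 promoter in the RefSeq table, 13 in all, each reaching from 250 bases before to 50 bases after a gene start. Both strands were searched. The paired carbohydrate response element was found in 0.365% of 32851 promoters of that length and, among the members, in Txnip. GTAAACA was found in 3.65% of all promoters and among the members in Txnip as well. The E-box CACGTG, which the paired element can contain, was found in 7.15% of all promoters and among the members in Arrdc4. TGACNNNGC was found in 12.4% of all promoters and in those of Arrdc4 and Txnrd1. CCAAT was found in 37.4% of all promoters and in those of 6 members. A match is a description of these letters, and no binding was measured in these hearts.

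The values are FPKM, that is, fragments scaled to transcript length and to library size. Depth estimated from the files lay between 6868000 and 8163000 fragments in the KO libraries and between 5189000 and 9398000 in the WT libraries, with WT replicate 3 the shallowest. At these depths an FPKM of 1 in a transcript of 2000 bases corresponds to about 14 to 16 fragments in the KO libraries and 10 to 19 in the WT libraries. The cardiomyocyte markers Myh6, Tnnt2, Tnni3, Actc1, Myl2 and Ryr2 were present in every library, as the label of heart requires. KO replicate 3 had 25.6 FPKM of Xist against 0.0742 or less in the other libraries, while Ddx3y, on the Y chromosome, had 0.0280 FPKM there and 13.0 to 16.2 FPKM in the others, so it reads as a female heart among male ones. No row of the table was matched to the deleted RNA, so it gave no check of the genotypes.

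Txnip was by far the most abundant of the 9 transcripts per length in both genotypes, and none of the 9 genes differed between KO and WT hearts at a limma adjusted p under 0.05, a threshold that 0.375% of all tested genes passed. Arrdc2 came nearest, at about 2.00 times the mean FPKM in KO hearts that it had in WT hearts, with no overlap between the genotypes. Txnip, Arrdc3 and Txn1 had higher mean levels in KO hearts, and Txnrd2 a lower one, without passing the test. The KO mean was 1.03 times the WT mean for Txn2, 1.09 times for Txnrd1 and 0.938 times for Arrdc4.

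The order of the levels was similar in the genotypes. In KO hearts Txnip (143 FPKM on average) was followed by Txn1 (25.6), Txn2 (12.5), Arrdc3 (10.9), Txnrd1 (6.15), Arrdc4 (5.09), Arrdc2 (2.42), Arrdc1 (2.37) and Txnrd2 (2.11). In WT hearts it ran from Txnip (109 FPKM) through Txn1 (21.7), Txn2 (12.2), Arrdc3 (8.03), Txnrd1 (5.65), Arrdc4 (5.43), Txnrd2 (3.03) and Arrdc1 (2.77) to Arrdc2 (1.21). Txnip stood apart from Txn1, and Txn1 from Txn2, in both genotypes, in that every library of the gene with the higher level lay above every library of the next. The ranges of Txnrd1 and Arrdc4 overlapped in both genotypes. Those of Txn2 and Arrdc3 overlapped in KO hearts, and those of Arrdc3 and Txnrd1 in WT hearts. Arrdc2, Arrdc1 and Txnrd2 could not be put in order in KO hearts, where each overlapped its neighbour, whereas in WT hearts Arrdc2 lay below Arrdc1 in every library.

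**Figure D1:**
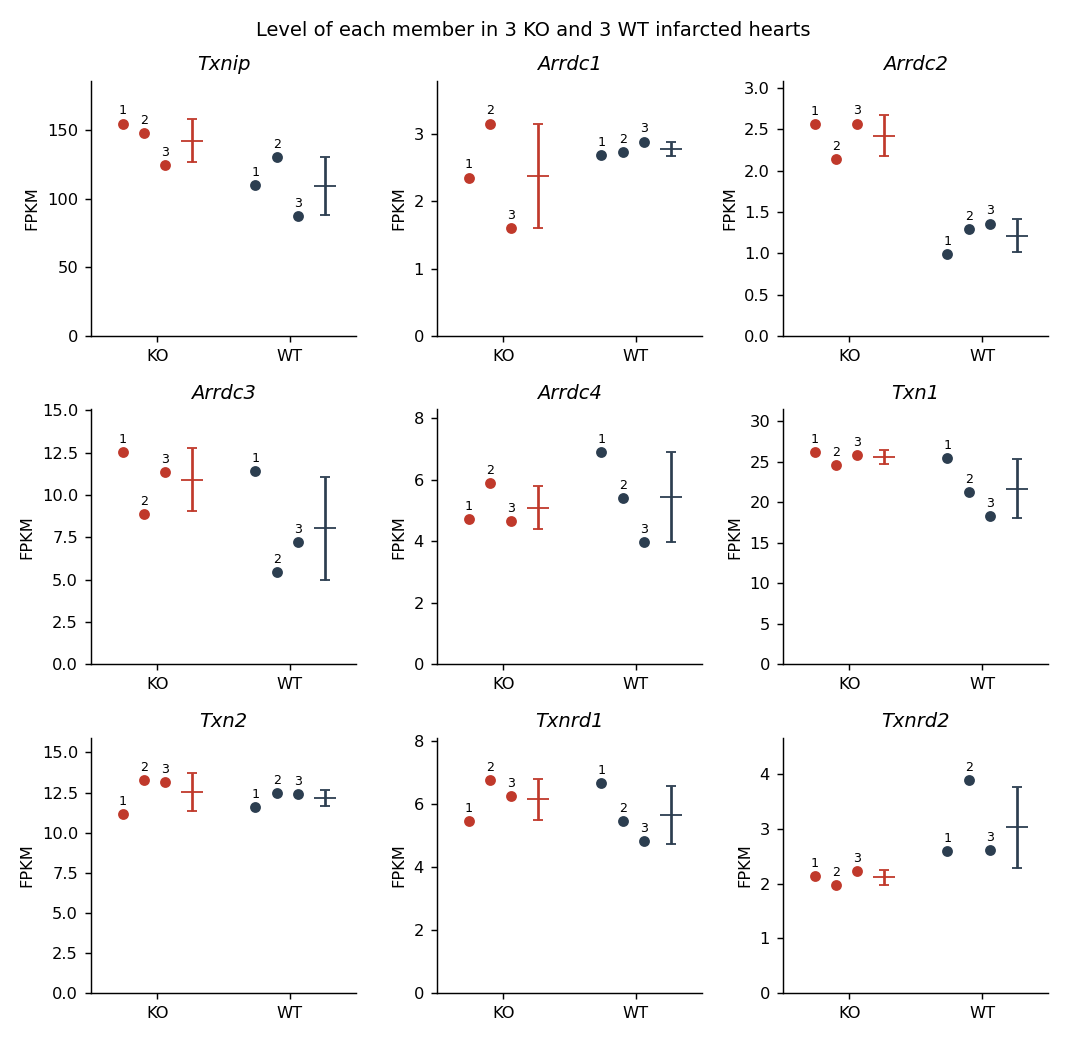
FPKM (vertical axes, from 0, a scale of its own for each gene) of the 9 members in each KO (red) and WT (dark) library; digits are replicate numbers and the bars beside the points are the mean ± SD of 3 libraries. Arrdc2 lies higher in every KO than in every WT library and Txnrd2 lower, while the other 7 genes overlap.

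Txnip (chromosome 3, 96557957 to 96561883, plus strand; GENCODE M21, GRCm38, matched by identifier; the build used for counting was not settled) had 155, 148 and 125 FPKM in the KO libraries, against 110.0, 131 and 87.6 FPKM in the WT libraries. The genotypes overlapped, since WT replicate 2 lay above KO replicate 3. Between 206 and 387 places from the top among 52550 rows, Txnip was one of the abundant transcripts of these hearts, with roughly 1285 to 3417 fragments behind each value. Its mean was 143 ± 16.0 FPKM in KO hearts and 109 ± 21.5 FPKM in WT hearts (SD, n = 3 each). All log2 differences here are KO minus WT ± SE, taken after 0.5 was added to the scaled FPKM, which understates the change of low genes. Txnip differed by 0.41 ± 0.17 (95% interval 0.0020 to 0.81, not adjusted for the number of genes; limma adjusted p = 0.586). Without KO replicate 3, whose sex-linked genes stand apart, the difference was 0.48 (limma adjusted p = 0.511).

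A second transcript runs across Txnip on the opposite strand. Gm15441, annotated as an antisense RNA, covers the whole of Txnip (96555765 to 96566801, minus strand) and its exons share 606 of the 3123 exonic bases of Txnip. It had 51.7, 39.2 and 43.8 FPKM in the KO libraries, against 42.5, 49.9 and 23.7 FPKM in the WT libraries. The genotypes overlapped, and WT replicate 3 was the lowest library for Gm15441 as it was for Txnip. Its log2 difference was 0.28 ± 0.26 (limma adjusted p = 0.839), and 0.0068 without WT replicate 3. Whether strand was used in counting is not given in the sources used here, so reads of the shared bases may have gone to either gene. The ratio of Txnip to Gm15441 FPKM was 3.00, 3.78 and 2.85 in KO libraries, against 2.59, 2.62 and 3.70 in WT libraries.

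The genes whose pattern over the 6 libraries lay nearest to that of Txnip were Jund, Tnfsf12, Inka1, Nt5c and Asah2. Likeness was measured as the root mean square difference between log2 values centred on each gene's mean, over the 6 libraries and 6225 other genes with a mean of at least 5 FPKM. It came to 0.068 for Jund (an AP-1 transcription factor gene), 0.089 for Tnfsf12 (a cytokine of the tumour necrosis factor family), 0.10 for Inka1, 0.11 for Nt5c (a nucleotidase) and 0.11 for Asah2 (a ceramidase). By comparison, Txnip itself varied by 0.27 around its mean. Jund had 101, 108 and 91.1 FPKM in the KO libraries, against 79.4, 90.3 and 66.4 FPKM in the WT libraries, and like the other 4 it did not pass the test (limma adjusted p = 0.522; 0.558 to 0.693 for the others). Among the members, Txn1 was nearest to Txnip at 0.20, at place 204 among the genes compared, and Txnrd2 farthest at 0.43. Gm15441 lay at 0.22. Such distances rest on few libraries. WT replicate 3, the shallowest library, was the lowest for Txnip, Txn1 and all 5 nearest genes, and WT replicate 1, the deepest, was the next lowest for Txnip. The 5 genes were chosen for likeness to Txnip in these same libraries, so a lowest library shared with it follows from that choice. The part of depth in these patterns was not tested.

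**Figure D2:**
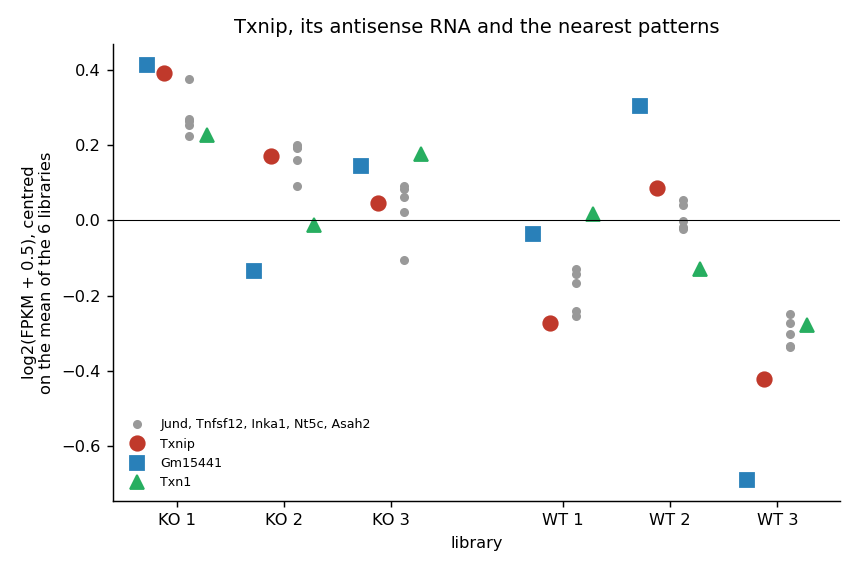
Log2(FPKM + 0.5) centred on each gene's mean over the 6 libraries (vertical axis) in each library (horizontal axis), for Txnip (red circles), its antisense RNA Gm15441 (blue squares), Txn1 (green triangles) and the 5 nearest genes (grey). WT replicate 3 is the lowest library for every gene plotted, and WT replicate 2 lies above KO replicate 3 for Txnip. The 5 nearest genes were chosen for their likeness to Txnip in these same libraries.

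Among the other alpha-arrestins, Arrdc2 differed most. The gene (chromosome 8, 70835129 to 70839720, minus strand) had 2.57, 2.14 and 2.57 FPKM in the KO libraries, against 0.986, 1.30 and 1.36 FPKM in the WT libraries. Every KO value was above every WT value, at low levels that rest on roughly 41 to 43 fragments per KO library and 17 to 24 per WT library. The mean was 2.42 ± 0.249 FPKM in KO hearts and 1.21 ± 0.200 FPKM in WT hearts (SD, n = 3 each). The log2 difference was 0.78 ± 0.18 (95% interval 0.35 to 1.21; limma adjusted p = 0.209), so it was not called among all genes. Without KO replicate 3 it was 0.73 (limma adjusted p = 0.376).

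Arrdc3, an adaptor that brings NEDD4-family ligases to membrane receptors, had 12.5, 8.85 and 11.3 FPKM in the KO libraries, against 11.4, 5.44 and 7.23 FPKM in the WT libraries. WT replicate 1 lay among the KO values and the other WT libraries below all of them. The log2 difference was 0.48 ± 0.26 (limma adjusted p = 0.695). It was 0.26 without WT replicate 2 and 0.70 without WT replicate 1.

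Arrdc4, like Txnip a glucose-responsive brake on glucose uptake, had 4.73, 5.89 and 4.65 FPKM in the KO libraries, against 6.90, 5.40 and 3.98 FPKM in the WT libraries. The WT libraries spread more widely than the genotypes differed, and the log2 difference was -0.049 ± 0.17 (95% interval -0.44 to 0.34; limma adjusted p = 0.967). Arrdc1, which drives the budding of vesicles from the cell surface, had 2.35, 3.15 and 1.61 FPKM in the KO libraries, against 2.69, 2.73 and 2.89 FPKM in the WT libraries. The KO libraries lay on both sides of the WT libraries, which were close together. Its log2 difference of -0.21 ± 0.20 (limma adjusted p = 0.839) came to -0.022 without KO replicate 3 and -0.37 without KO replicate 2. Arrdc5, a further relative outside the 9 genes, was listed at 0 in all libraries except WT replicate 2 (0.238 FPKM) and was not tested. Txnip made up 87.5%, 88.1% and 86.1% of the summed FPKM of the 5 measured alpha-arrestins in KO libraries, against 83.3%, 89.8% and 85.0% in WT libraries.

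Neither thioredoxin was called. Txn1, the thioredoxin of the cytosol and nucleus (chromosome 4, 57943373 to 57956411, minus strand), had 26.2, 24.6 and 25.9 FPKM in the KO libraries, against 25.5, 21.2 and 18.3 FPKM in the WT libraries. WT replicate 1 lay among the KO values, and the other WT libraries below them. The log2 difference was 0.26 ± 0.13 (95% interval -0.041 to 0.56; limma adjusted p = 0.663). Its processed pseudogene Txn-ps1, which could share reads with it, was listed at 0 in all 6 libraries. Txn2, the thioredoxin of mitochondria, had 11.1, 13.3 and 13.2 FPKM in the KO libraries, against 11.6, 12.5 and 12.4 FPKM in the WT libraries. The WT values all lay within the range of the KO values, and the log2 difference of 0.049 ± 0.12 had a 95% interval of -0.24 to 0.34 (limma adjusted p = 0.953).

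Txnrd1, the cytosolic reductase, had 5.46, 6.75 and 6.24 FPKM in the KO libraries, against 6.66, 5.46 and 4.83 FPKM in the WT libraries, which overlapped (log2 difference 0.13 ± 0.12, 95% interval -0.16 to 0.42; limma adjusted p = 0.842). It was 0.070 without WT replicate 3 and 0.20 without WT replicate 1. The gene Eid3 lies within Txnrd1 and shares no annotated exonic base with it. Txnrd2, the mitochondrial reductase (chromosome 16, 18426384 to 18479073, plus strand), had 2.14, 1.97 and 2.23 FPKM in the KO libraries, against 2.59, 3.89 and 2.62 FPKM in the WT libraries. Every KO value was below every WT value, and WT replicate 2 was far above the rest. The log2 difference was -0.41 ± 0.19 (95% interval -0.84 to 0.030; limma adjusted p = 0.630), and -0.23 without WT replicate 2. Txnrd3, a further reductase outside the 9 genes, had a log2 difference of -0.028 ± 0.19 (limma adjusted p = 0.987).

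Set against each other within a library, the members gave ratios that are free of library size. The ratio of Txnip to Txn1 FPKM was 5.91, 6.01 and 4.82 in KO libraries, against 4.31, 6.15 and 4.80 in WT libraries, which overlapped. That of Txn1 to Txnrd1 was 4.80, 3.65 and 4.15 in KO libraries, against 3.83, 3.89 and 3.78 in WT libraries, which overlapped as well. That of Txn2 to Txnrd2 in the mitochondrial pair was 5.21, 6.72 and 5.90 in KO libraries, against 4.47, 3.21 and 4.73 in WT libraries. It did not overlap, as Txnrd2 itself did not. These ratios were chosen after the values were seen and were not tested.

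**Figure D3:**
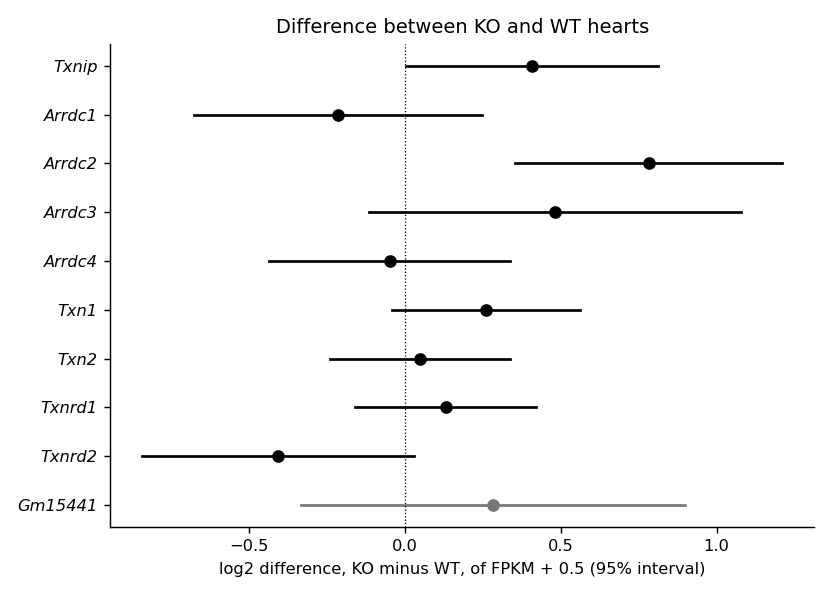
Log2 difference, KO minus WT, of FPKM + 0.5 (horizontal axis) for the 9 members and, in grey, the antisense RNA Gm15441; points are limma estimates from 3 against 3 libraries and lines are 95% intervals not adjusted for the number of genes. The interval of Arrdc2 (0.35 to 1.21) and, barely, that of Txnip (0.0020 to 0.81) exclude 0, and none of the genes passed after adjustment over all 14656 genes.

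At a limma adjusted p under 0.05, 0 of the 9 members were called, while 0.375% of all 14656 tested genes were called. At an unadjusted limma p under 0.05 there were 2 members, Arrdc2 and Txnip, and 8.48% of all genes. Every KO value lay above every WT value for 1 member (Arrdc2) and for 5.29% of all genes, and below for 1 member (Txnrd2) and 7.5% of all genes. The log2 difference was above 0 for 6 of the 9 members and for 49.3% of all genes. The median difference was 0.13 over the members and -0.0042 over all tested genes. The labels number the libraries as replicates without naming an animal for each. The sex-linked genes set KO replicate 3 apart as another animal than the other KO libraries; for the rest, the spread behind each p-value may be in part technical.

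Genes around the system were read from 7 lists. Where a listed gene is said not to overlap between genotypes, the same held for 12.8% of all tested genes. Thioredoxin-like proteins and peroxiredoxins had 0 of 29 tested members called, with log2 differences between -0.28 and 0.33 and a median of 0.039. This list holds the enzymes that spend the electrons of thioredoxin, among them the peroxiredoxins Prdx1 (0.12) and Prdx3 (-0.14). Its members of smallest p were Txndc12, at 13.4 ± 0.732 FPKM in KO and 11.3 ± 1.49 FPKM in WT hearts, and the methionine sulphoxide reductases Msrb1 and Msrb2, with log2 differences of 0.33 ± 0.16 and -0.28 ± 0.17 (limma adjusted p = 0.630, 0.650 and 0.735). Msrb2 came to -0.13 without KO replicate 2. The glutathione and glutaredoxin list, the parallel thiol system, had 0 of 19 called and a median of 0.066, which ran from 0.0020 without WT replicate 2 to 0.19 without KO replicate 2. Chac1, which degrades glutathione, had 1.78 ± 0.0550 FPKM in KO and 0.755 ± 0.399 FPKM in WT hearts, without overlap (log2 difference 0.94 ± 0.25, limma adjusted p = 0.294). Gclm, a subunit of the rate-limiting enzyme of glutathione synthesis, and the glutathione transferase Gsta4 differed by 0.44 ± 0.20 and -0.43 ± 0.23 (limma adjusted p = 0.625 and 0.693). Gclm came to 0.25 without KO replicate 1, and Gsta4 to -0.27 without KO replicate 2 and -0.26 without WT replicate 3.

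NRF2 is the transcription factor that acts through antioxidant response elements such as the one printed for Txnrd1. Of 19 tested genes of its list 0 were called, against 0.375% of all tested genes. A difference above 0 was found for 14 and one below 0 for 5, while 49.3% of all tested genes lay above 0. The list's median of 0.10 came to 0.052 without KO replicate 1, 0.054 without WT replicate 1 and 0.15 without KO replicate 2. Nfe2l2, which encodes NRF2, had 34.6, 41.9 and 40.9 FPKM in the KO libraries, against 32.4, 29.8 and 30.6 FPKM in the WT libraries, without overlap (log2 difference 0.34 ± 0.11, limma adjusted p = 0.407). Haem oxygenase Hmox1 and the autophagy adaptor Sqstm1 differed by 0.53 ± 0.20 and 0.25 ± 0.11 (limma adjusted p = 0.516 and 0.614).

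Of the transcription factors known to act on Txnip, 1 of 15 tested was called, against 0.375% of all tested genes. Klf6, a Krüppel-like factor, rose to 53.2, 57.5 and 49.5 FPKM in the KO libraries, against 31.2, 25.4 and 27.1 FPKM in the WT libraries (log2 difference 0.94 ± 0.11, limma adjusted p = 0.026). Leaving out any library ended that call, with a limma adjusted p of 0.059 without KO replicate 3, 0.171 without WT replicate 2 and values between these for the other 4. The glucose sensor MondoA, encoded by Mlxip, and its partner Mlx act on the paired element of Txnip. Mlxip stood at 7.30 ± 1.90 FPKM in KO and 5.26 ± 0.226 FPKM in WT hearts, and Mlx at 7.54 ± 0.458 and 5.83 ± 0.670 FPKM in KO and WT hearts. Neither gene overlapped between genotypes and neither was called (log2 differences 0.42 ± 0.16 and 0.36 ± 0.15, limma adjusted p = 0.520 and 0.567). Every KO value lay above every WT value for 5.29% of all tested genes. Mlxip came to 0.27 without KO replicate 2. Mlxipl, which encodes the related glucose-responsive factor ChREBP, had 2.29 ± 0.579 FPKM in KO and 2.93 ± 0.484 FPKM in WT hearts, with overlap, and a difference of the other sign (-0.30 ± 0.22, limma adjusted p = 0.792). The median of the list was 0.056, and it was -0.028 without WT replicate 1 and 0.13 without WT replicate 3.

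Of the glucose uptake and sensing genes 0 of 19 were called (median -0.031), but single genes lay far from the median. Ddit4, a stress-induced inhibitor of mTORC1, had 54.8, 60.7 and 29.9 FPKM in the KO libraries, against 16.0, 17.5 and 10.7 FPKM in the WT libraries (log2 difference 1.66 ± 0.27, limma adjusted p = 0.073). Without KO replicate 3 it was called (1.96, limma adjusted p = 0.032). Pfkfb2, the cardiac form of the enzyme that makes the glycolytic activator fructose 2,6-bisphosphate, had 2.98 ± 0.359 FPKM in KO and 6.09 ± 0.979 FPKM in WT hearts (-0.90 ± 0.19, limma adjusted p = 0.151). Pfkfb3 and Pfkfb1, which encode other forms of that enzyme, differed with the other sign, by 1.08 and 0.87 (limma adjusted p = 0.283 and 0.532). Irs2, an adaptor of the insulin receptor, differed by 0.56 ± 0.14 (limma adjusted p = 0.249).

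The partners of alpha-arrestins, with HECT ubiquitin ligases and beta-arrestins, had 0 of 17 called and a median of -0.019. The beta-1 adrenergic receptor gene Adrb1 differed by -0.48 ± 0.20 and the ubiquitin ligase gene Nedd4 by 0.32 ± 0.19 (limma adjusted p = 0.576 and 0.732). Nedd4 came to 0.13 without KO replicate 3 and 0.49 without KO replicate 1. The list of ASK1 signalling, which thioredoxin holds in check, and of the NLRP3 inflammasome, to which TXNIP is known to bind, had 0 of 15 called and a median of -0.055. Map3k6, a relative of the ASK1 kinase, differed by 0.51 ± 0.16, the pore-forming protein gene Gsdmd by -0.29 ± 0.13 and Casp1 by -0.37 ± 0.16 (limma adjusted p = 0.392, 0.592 and 0.603). Nlrp3 itself did not pass the filter on low values.

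**Figure D4:**
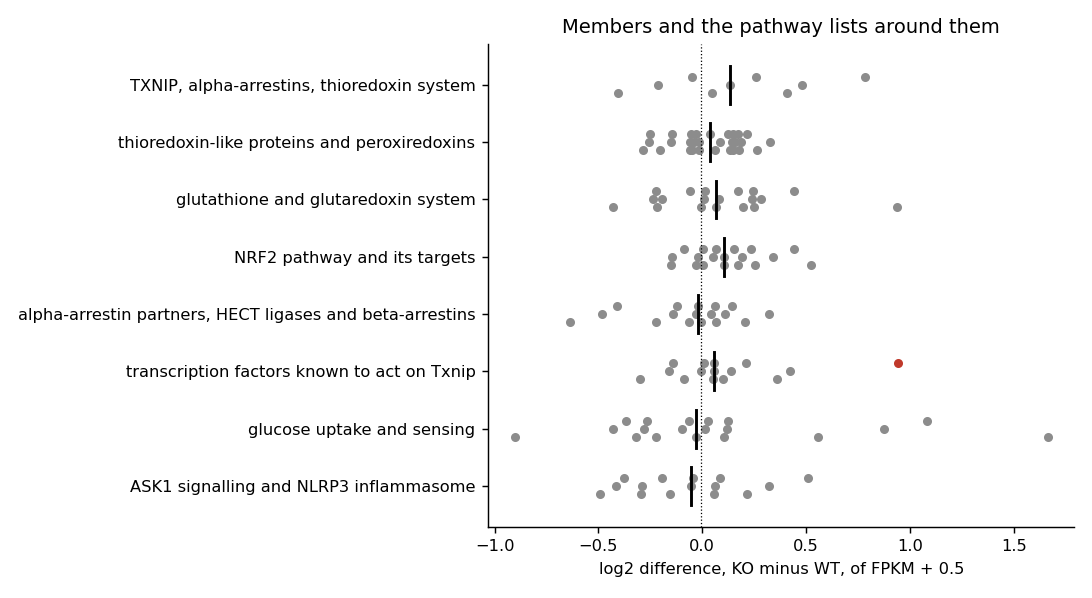
Log2 difference, KO minus WT, of FPKM + 0.5 (horizontal axis) for the 9 members (top) and for each tested gene of the 7 lists; black bars are medians and the dotted line is the median of all tested genes (-0.0042). The 1 red point is Klf6, the only gene plotted with a limma adjusted p under 0.05, and Ddit4 is the point farthest to the right.

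Few immune cell markers passed the test, but the summed levels of 3 immune cell types did not overlap between genotypes. Of all single genes tested, 12.8% did not overlap, and 7.5% had every KO value below every WT value. Summed FPKM of the 3 neutrophil markers was 16.8 to 28.8 in KO and 43.6 to 62.1 in WT libraries, that of the 3 T cell markers 1.80 to 2.31 in KO and 3.49 to 5.49 in WT libraries, and that of the 3 B and plasma cell markers 9.09 to 19.5 in KO and 23.1 to 82.8 in WT libraries. Of these markers 1 was called, the neutrophil gene S100a8 (log2 difference -1.24 ± 0.18, limma adjusted p = 0.047). The T cell genes Cd3e and Cd3g, at 1.12 FPKM or less in every library, did not pass the filter on low values and were not tested. S100a9, Trac and Jchain make up most of the 3 sums and were not called (limma adjusted p = 0.177, 0.091 and 0.312), and Csf3r, Cd3e and Cd79a overlapped between genotypes. The sums for cardiomyocyte (6338 to 9714 in KO, 7887 to 10249 in WT), endothelial (235 to 314, 264 to 277), fibroblast (909 to 1834, 793 to 1566), macrophage (187 to 266, 194 to 301), erythroid (4403 to 7276, 6301 to 11040), adipocyte (391 to 546, 390 to 490), skeletal muscle (117 to 316, 262 to 359) and atrial markers (810 to 1691, 1014 to 1483) overlapped, KO before WT in each pair. Acta1 and Nppa make up most of the skeletal muscle and atrial sums. The atrial gene Myl7 had 25.2 FPKM in KO replicate 2 and 0 to 4.80 FPKM in the other libraries. Tnnt3, of skeletal muscle, had 10.9 FPKM in WT replicate 1 and 0.0920 to 2.95 FPKM in the others. Endothelial Kdr (26.3 to 28.4 FPKM in KO, 38.4 to 43.0 in WT) and adipocyte Fabp4 (158 to 219, 114 to 133) did not overlap, and neither was called. Kdr was the only 1 of the 4 endothelial markers with a log2 difference below 0. Fabp4 was above 0, while 2 of the 3 adipocyte markers tested were below it. Pecam1, Cdh5, Tie1, Adipoq, Lpl and Plin1 overlapped between genotypes. The part of these markers in the differences of Arrdc2 and Txnrd2 was not tested. In whole hearts, fewer cells of a type and less RNA per cell cannot be told apart.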

How the data were processed

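Heart RNA of 3 KO and 3 WT samples was sequenced from Illumina TruSeq libraries, per the labels' protocols. The authors deposited FPKM per gene in a table titled as counts; 37.2% to 40.4% of values per library are not whole. Bowtie 0.12.2 and the builds mm8 and mm9 are named, without a role, per the submitters' processing notes; the quantification tool is not given in the sources used here. Symbols were matched by Ensembl identifier (52403 of 52550 rows). All 37 mitochondrially encoded genes are listed at 0, so a 0 is reported as listed. Fragment numbers are approximate: the most frequent FPKM times transcript length of genes with 1 transcript was taken as 1 fragment.

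Genes with FPKM of at least 0.5 in 3 libraries were kept. Trimmed means of log2 ratios gave scaling factors of 0.949 to 1.07. Log2(FPKM / factor + 0.5) was fitted with limma 3.58.1 in R 4.3.3 (trend, two-sided, Benjamini-Hochberg over all tested genes, threshold 0.05), and checked on simulated data. FPKM printed are as deposited. The 9 members, the lists, the motifs and the naming rule (all members; list members called, otherwise the 3 of smallest p; the 5 patterns nearest Txnip among genes with a name of their own, leaving out numbered gene models) were chosen with earlier results of these data known. Mlxip, Mlx, Mlxipl, Pfkfb1, Pfkfb3, Prdx1 and Prdx3 are named outside the naming rule, after their values were seen. Alternatives were other scalings, filters, pseudocounts (0.1 and 1) and variance models, a replicate block and leaving out each library. Some results are not reported here.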

Additional observations from a re-analysis of the deposited data

How the results depend on the processing

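None of the 9 members was called by limma under any of the 16 alternatives, and Txnip, Arrdc2, Arrdc3, Txn1, Txnrd1, Arrdc1 and Txnrd2 kept the sign of their difference in all of them. For Txnip the log2 difference ran from 0.30 to 0.55 and for Arrdc2 from 0.64 to 0.96 (limma adjusted p from 0.511 to 0.889 and from 0.189 to 0.525). The sign changed for Arrdc4 without WT replicate 1 (0.080) and for Txn2 without KO replicate 3 (-0.0024) or WT replicate 1 (-0.031); with a library left out these 2 ranged from -0.199 to 0.080 and from -0.031 to 0.102. Over all genes 55 were called, against 20 with no filter on low values (25162 genes tested) and between 12 and 36 when a library was left out, 12 without KO replicate 1 and 36 without KO replicate 3. With the replicate number of the titles as a block 42 genes were called, 0 of them members; Klf6 was then not called (adjusted p = 0.085) and Ddit4 was (0.027). Deviations of same-numbered libraries from their group means correlated, across genes, at 0.0076, -0.036 and 0.18 for replicates 1, 2 and 3, so the numbers were not taken to pair the hearts. The median difference of all genes was -0.0042, and -0.015 with no scaling. Depth limits Arrdc1, Arrdc2 and Txnrd2 most, with fewer than 100 fragments each per library.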

Other observations

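Txndc5, a thioredoxin-like protein of the endoplasmic reticulum chosen here after its values were seen, had 16.8, 25.7 and 15.7 FPKM in the KO libraries, against 47.7, 18.8 and 13.2 FPKM in the WT libraries. WT replicate 1, the highest, was also the highest library for the plasma cell gene Jchain, at 74.5 FPKM there, against 8.38 to 16.1 FPKM in the KO libraries and 20.2 to 29.9 FPKM in the other WT libraries. The part of plasma cells in the level of Txndc5 was not tested.

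Gm38560, a noncoding RNA on the opposite strand within the Txnrd1 locus, with no exonic base in common, had 1.98, 0.417 and 0.434 FPKM in the KO libraries, against 1.55, 1.64 and 1.68 FPKM in the WT libraries. KO replicate 1 lay above all WT libraries and the other KO libraries below them (log2 difference -0.71 ± 0.40, limma adjusted p = 0.708). It was also named after its values were seen.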
